A study of Mus musculus with 9 samples.

Results

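Cybb, Cyba, Ncf1, Ncf4 and Rac2 encode subunits of the phagocyte NADPH oxidase, and their mRNA was followed here through the cell classes of mouse bone marrow in 3 strains. The 5 genes were taken by symbol from the 31053 genes of the count matrix. Single-cell RNA sequencing (10x Genomics, 3' chemistry) had been done on femur bone marrow from each of 9 female mice aged 9 to 10 weeks, bought and delivered together: 3 NZB, 3 NZW and 3 NZBWF1, the first-generation cross of NZB and NZW. NZBWF1 mice develop a lupus-like disease with age, the mice were given no treatment in these labels, and each mouse was 1 library. The mice of each group are inbred or a defined cross, so that a strain difference covers the whole genome and was not traced to any locus.

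The phagocyte NADPH oxidase carries electrons from NADPH across a membrane to oxygen and so makes superoxide, which phagocytes use against ingested microbes. Its membrane core is the heterodimer of gp91phox, the electron-carrying chain encoded by Cybb, and p22phox, the partner chain encoded by Cyba. In resting cells the regulators p47phox (Ncf1) and p40phox (Ncf4) stay in the cytosol, and on stimulation they move to the membrane together with the GTPase Rac2. Neutrophils, monocytes and macrophages are its best known users, B cells carry it too, and inherited loss of a subunit causes chronic granulomatous disease in people.

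On the mouse genome build GRCm38 (GENCODE vM21 annotation) Cybb (ENSMUSG00000015340) lies on the X chromosome from base 9435252 to 9487771 on the minus strand, and has up to 13 exons in a transcript. Cyba (ENSMUSG00000006519) lies on chromosome 8 from 122424776 to 122432930, minus strand, and its span overlaps Gm20388 on the opposite strand. Ncf1 (ENSMUSG00000015950) lies on chromosome 5 from 134220053 to 134229625, minus strand, and overlaps Gtf2ird2 on the opposite strand. Ncf4 (ENSMUSG00000071715) lies on chromosome 15 from 78244801 to 78262580 on the plus strand, and Rac2 (ENSMUSG00000033220) on the same chromosome from 78559167 to 78572783 on the minus strand. The spans of Ncf4 and Rac2 are 297 kb apart, from the 3′ end of Ncf4 to the 3′ end of Rac2. All mice were female, so the X-linked Cybb had the same dose in each.

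Because Cybb, Cyba and Ncf1 all rose at the first and the second neutrophil step, the 250 bases before the RefSeq start of each are shown, from GRCm38.p6 and written 5′ to 3′ on the strand of the gene. They lie at chr5:134229626-134229875 (Ncf1, minus strand), chr8:122432941-122433190 (Cyba, minus strand) and chrX:9469325-9469574 (Cybb, minus strand), in each case upstream of the first exon of the RefSeq transcript, and for Cybb within the longer span of the GENCODE gene. The RefSeq bases are those of the reference strain and not of NZB or NZW. Ncf4 and Rac2 had no entry. Capitals mark matches to 3 short motifs searched on both strands, namely GAGGAA, a core bound by PU.1 that reads TTCCTC on the other strand, CCAAT, which reads as ATTGG there, and AGATAA, a site bound by GATA factors that reads as TTATCT.
Ncf1: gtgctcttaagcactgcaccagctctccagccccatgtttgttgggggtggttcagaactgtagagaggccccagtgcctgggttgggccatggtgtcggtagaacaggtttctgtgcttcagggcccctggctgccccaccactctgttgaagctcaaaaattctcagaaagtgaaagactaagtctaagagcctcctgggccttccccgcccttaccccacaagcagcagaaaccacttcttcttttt
Cyba: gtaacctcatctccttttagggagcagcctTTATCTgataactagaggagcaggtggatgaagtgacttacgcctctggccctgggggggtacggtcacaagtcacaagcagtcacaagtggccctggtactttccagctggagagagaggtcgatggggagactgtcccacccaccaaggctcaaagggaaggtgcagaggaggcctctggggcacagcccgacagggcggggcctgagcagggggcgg
Cybb: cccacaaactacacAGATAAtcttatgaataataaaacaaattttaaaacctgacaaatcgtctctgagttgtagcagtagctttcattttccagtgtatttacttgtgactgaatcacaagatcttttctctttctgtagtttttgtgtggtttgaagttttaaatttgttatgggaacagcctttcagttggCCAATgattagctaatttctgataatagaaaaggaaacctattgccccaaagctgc
The Cybb window held CCAAT at 56 to 52 bases before the start and AGATAA at 236 to 231 bases before it. The Cyba window held TTATCT at 220 to 215 bases before the start, and the Ncf1 window held no match. Of all 32851 promoter windows of the same length, 33.8% held CCAAT or its complement, 9.99% AGATAA or its complement and 23.3% GAGGAA or its complement. A match is a description of letters and not a measured site.

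The 9 libraries held 68444 cell barcodes, 4793 to 10269 a mouse, and 39051 cells with at least 1000 UMIs (unique molecular identifiers, each standing for 1 captured RNA molecule), at least 500 genes and at most 10% mitochondrial UMIs were kept. Of these, 30649 (78.5%) fell into 1 of 21 classes gated by RNA markers, 5208 (13.3%) met the gates of more than 1 lineage, or of more than 1 kind of macrophage, dendritic cell or nonclassical monocyte, and were set aside, and 3194 met no gate. No surface protein was measured, so each class name stands for cells with that class's RNA markers. UMIs in classes summed to 6360380 to 12960593 a mouse, and the median UMIs of a kept cell lay between 2182.5 and 2536.5. These medians were 2410 to 2536.5 in NZB mice and 2182.5 to 2314 in the others. The median mitochondrial share was 2.95% to 3.97% in NZB mice and 4.22% to 4.72% in the others. NZB thus stood apart in both measures without overlap. Their part in the strain differences was not tested beyond the other cell filters and the thinning given below. The authors report a lower average cell viability for NZB than for the other strains. Reads of droplets with no cell amounted to 0.485% to 0.776% of a median cell's UMIs, and 557 of 67883 distinct barcode sequences occurred in more than 1 library. The counts come without a stated strand setting. It was not checked if the Cyba and Ncf1 counts hold any from the antisense neighbour in the shared span. Counts were summed over the cells of a class within a mouse, classes with under 10 cells in a mouse were left out for that mouse, and levels are given as CPM, the gene's UMIs divided by all UMIs of the class in that mouse and scaled to a sum of 1000000. A 3' count is not divided by gene length, so levels are compared between classes and strains and never between genes.

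All 5 subunits had their highest mean CPM in a neutrophil class. Cybb, the catalytic chain, reached 2230 ± 380 CPM in immature neutrophils (mean ± SD, n = 9 mice), 1872 ± 479 in mature neutrophils and 1443 ± 191 in dividing neutrophil precursors. Its levels in monocytes were in the same range, at 1966 ± 651 CPM in classical monocytes (n = 9) and 2174 ± 347 in nonclassical monocytes (n = 8). The order for Cybb went on through plasmacytoid dendritic cells (857 ± 104 CPM, n = 9), dividing monocytes (821 ± 61.1, n = 9), macrophages (658 ± 179, n = 6), mature B cells (270 ± 39.8, n = 9), small pre-B cells (147 ± 79.6, n = 9), plasma cells (121 ± 38.9, n = 7) and granulocyte-monocyte precursors (69.7 ± 27.8, n = 9). In the 8 other classes of the order Cybb stood at 29.3 CPM or less, with 6.25 ± 7.77 in NK cells and 8.96 ± 7.13 in early erythroid cells. Conventional dendritic cells passed the minimum of 10 cells in 3 mice only and were kept out of the order, with Cybb at 853 ± 106 CPM.

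Cyba, the membrane partner of Cybb, was spread more widely. It stood at 2620 ± 125 CPM in immature neutrophils, 2461 ± 169 in dividing neutrophil precursors and 2436 ± 67.2 in mature neutrophils, and at 1473 to 1818 CPM in monocytes and macrophages. Unlike Cybb, Cyba was counted at 720 ± 90.3 CPM in NK cells, at 546 ± 163 in T cells and at 174 ± 40.5 in stem and progenitor cells. Its lowest means were 60.6 ± 20.7 CPM in early erythroid cells and 14.2 ± 9.23 in haemoglobinizing erythroid cells (n = 9 each).

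Ncf1, the organizing subunit p47phox, had its highest means in the same 3 classes, with 678 ± 76.3 CPM in mature neutrophils, 573 ± 44.7 in immature neutrophils and 388 ± 25.02 in dividing neutrophil precursors. Plasmacytoid dendritic cells (220 ± 35.6 CPM), classical monocytes (216 ± 42.9) and mature B cells (163 ± 33.1) followed, and plasma cells had 4 Ncf1 UMIs in 7 mice. Ncf4, which encodes p40phox, was highest in dividing neutrophil precursors (1015 ± 63.5 CPM), followed by mature (938 ± 68.8) and immature neutrophils (912 ± 42.2). The 3 monocyte classes lay between 557 and 579 CPM of Ncf4, mature B cells at 287 ± 26.2 and granulocyte-monocyte precursors at 286 ± 47.2.

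Rac2, the blood cell GTPase that also serves in cell movement and in lymphocyte signalling, was high outside the phagocytes as well. It was counted at 1998 ± 103 CPM in mature neutrophils, 1651 ± 81.8 in immature neutrophils and 1374 ± 117 in dividing neutrophil precursors. T cells (1165 ± 152 CPM), plasmacytoid dendritic cells (1114 ± 222), mature B cells (1034 ± 72.2) and NK cells (951 ± 162) came next, all above the classical monocytes (568 ± 41.0). Its lowest means were in haemoglobinizing erythroid cells (78.1 ± 27.2), early erythroid cells (74.9 ± 18.4) and plasma cells (71.5 ± 18.9).

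**Figure D1:**
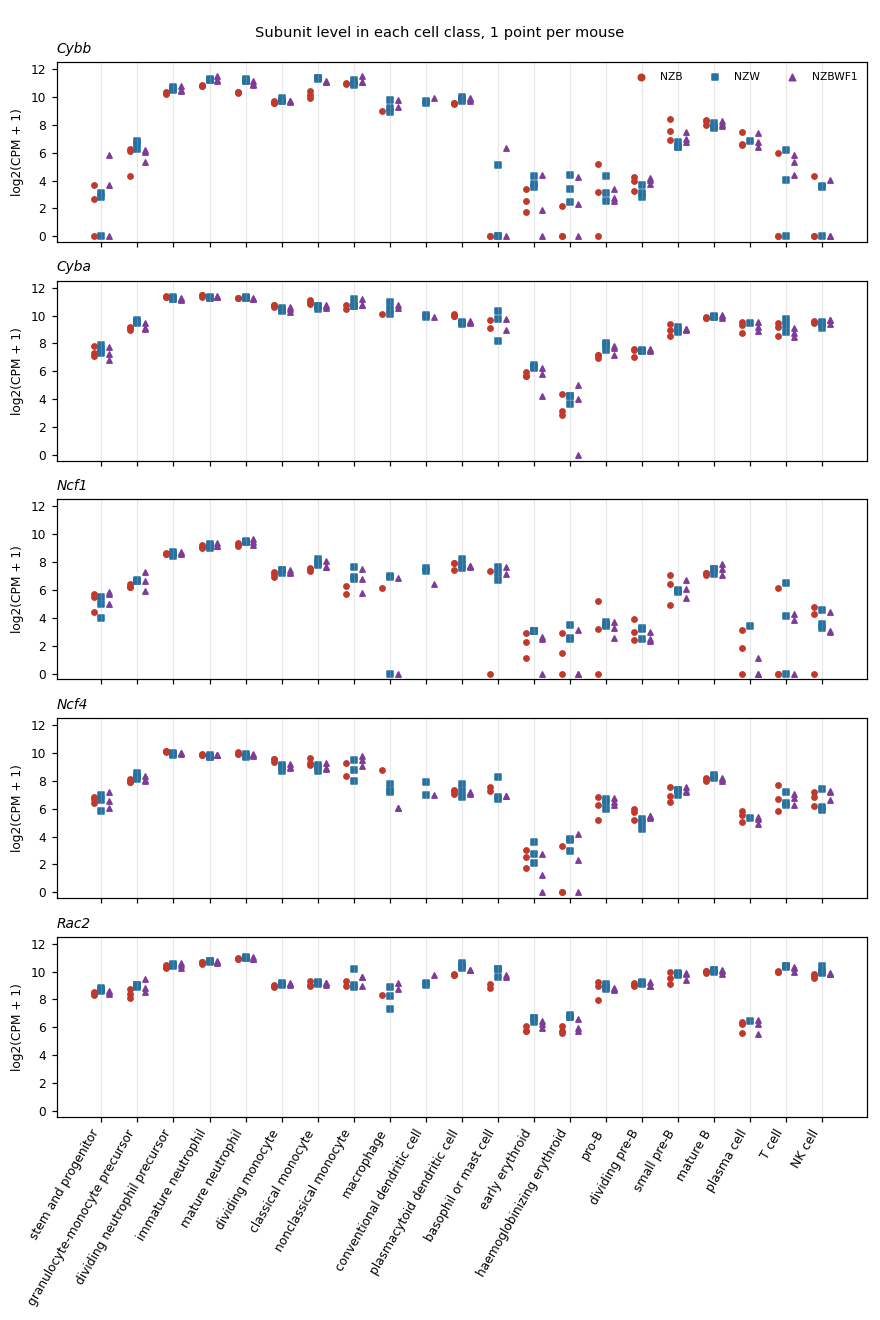
Level of each subunit as log2(CPM + 1) in the 21 classes, in 1 panel a gene, with 1 point for each mouse with at least 10 cells of the class, marked by strain (NZB circles, NZW squares, NZBWF1 triangles). A neutrophil class has the highest mean in every panel, classical and nonclassical monocytes stand among the neutrophil classes for Cybb, and Cybb, Ncf1 and Ncf4 come down to means of 3.91 to 8.96 CPM in the erythroid classes and Rac2 keeps means of 1165 CPM in T cells and 951 in NK cells.

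Neighbours in these orders were compared within mice by an exact permutation test that flips the sign of each mouse's difference, on log2(CPM + 1). Of 95 neighbouring pairs (19 a gene), 20 differed at an adjusted p under 0.05: 4 for Cybb, 6 for Cyba, 4 for Ncf1, 3 for Ncf4 and 3 for Rac2. With 1 mouse left out, 15 to 17 passed in 5 fits and 0 passed in the 4 fits without NZW mouse 1, 2 or 3 or NZBWF1 mouse 1. The smallest p with 8 mice is 0.00781, and over 94 or 95 tests it passes the adjustment once 15 pairs reach it, so that these counts depend on that limit. Among the 4 highest Cybb classes, immature neutrophils, nonclassical monocytes, classical monocytes and mature neutrophils, no neighbours differed beyond their spread. That spread is over mice of all 3 strains and takes in differences between the strains. Mean Cybb in nonclassical against classical monocytes was 1976 against 1140 CPM in NZB (2 and 3 mice). It was 2091 against 2575 in NZW and 2389 against 2184 in NZBWF1, so equal levels within a strain cannot be read from this test. Mature neutrophils lay above dividing neutrophil precursors in Cybb by 0.34 ± 0.24 on the log2 scale (SD, higher in 8 of 9 mice, exact permutation test, adjusted p = 0.0371). The dividing neutrophil precursors in turn lay above plasmacytoid dendritic cells by 0.75 ± 0.14 (9 of 9 mice, exact permutation test, adjusted p = 0.0265). For the other neighbours the order of the means is a description.

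Shares of cells with a UMI were compared once each cell was thinned to 1000 UMIs. Cybb was found in 88.5% ± 8.76 of nonclassical monocytes (SD over 8 mice; 92.4% before thinning), in 86.9% ± 4.70 of immature neutrophils (SD over 9 mice; 98.3% before thinning), in 79.0% ± 12.2 of classical monocytes (92.5%) and in 22.1% ± 3.33 of mature B cells (30.4%). In early erythroid cells, which should lack it, the share was 0.427% ± 0.680 (5.12%), with a median of 10392 UMIs a cell against 2286 in immature neutrophils. Shares of Cybb in NK cells (1.01% ± 1.26) and pro-B cells (1.49% ± 2.10) were within their spread of that background, and free RNA accounted for an expected 66.4% of the 6 Cybb UMIs of the NK cells, 32.0% of the 18 in pro-B cells and 7.41% of the 125 in early erythroid cells, so that most Cybb UMIs of the early erythroid cells were not expected from free RNA. Cyba was found in 54.2% ± 6.58 of thinned NK cells against 5.07% ± 2.70 of early erythroid cells. All 5 subunits were found together in 17.8% of thinned immature neutrophils, 17.8% of mature neutrophils, 10.9% of dividing neutrophil precursors, 2.99% of classical monocytes and 0.628% of mature B cells. At this depth a cell without a UMI cannot be called a cell without the mRNA.

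Along the neutrophil lineage the 5 subunits moved in different steps. From granulocyte-monocyte precursors to dividing neutrophil precursors all 5 rose in 9 of 9 mice. Cybb rose by 4.48 ± 0.65 on the log2(CPM + 1) scale (mean ± SD over mice), Ncf1 by 2.08 ± 0.37, Cyba by 1.99 ± 0.31, Ncf4 by 1.84 ± 0.27 and Rac2 by 1.64 ± 0.33. Each of these had an adjusted p of 0.00488 in the exact permutation test over 9 mice, whose smallest unadjusted p is 0.00391.

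After that step the subunits parted. From dividing precursors to immature neutrophils Cybb (0.62 ± 0.10), Ncf1 (0.56 ± 0.09), Rac2 (0.27 ± 0.09) and Cyba (0.09 ± 0.06) rose in 9 of 9 mice, while Ncf4 fell by 0.15 ± 0.08 in 9 of 9. From immature to mature neutrophils Rac2 rose by 0.28 ± 0.06 (9 of 9 mice) and Ncf1 by 0.24 ± 0.16 (8 of 9), while Cybb fell by 0.28 ± 0.20 (8 of 9) and Cyba fell by 0.10 ± 0.07 (9 of 9). The fall of Cybb was of unlike size in the strains. Its mean went from 1799 to 1281 CPM in NZB, from 2480 to 2023 in NZBWF1 and from 2412 to 2312 in NZW. Ncf4 differed there by 0.04 ± 0.07, an amount within its spread (exact permutation test over 9 mice, adjusted p = 0.133). Of the 15 tests, 14 passed, with adjusted p of 0.00488 or 0.00837 (exact permutation test). The classes were gated by genes other than the subunits. In cells with at least 2000 UMIs and 1000 genes 6 of the 15 passed, namely the rise of all 5 at the first step and the fall of Ncf4 by 0.25 ± 0.20 at the second (exact permutation test, adjusted p = 0.0195). Among those cells the second step was 0.05 ± 0.22 for Cybb and 0.15 ± 0.17 for Ncf1, the third step of Cybb was -0.03 ± 0.41, and the second steps of Cyba (-0.09 ± 0.15) and Rac2 (-0.10 ± 0.19) had the other sign without passing.

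**Figure D2:**
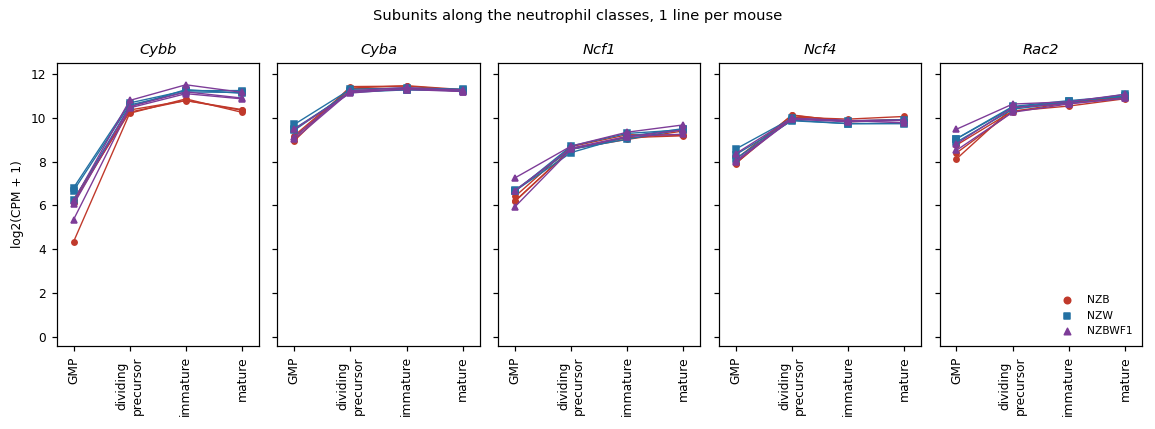
Level of the 5 subunits as log2(CPM + 1) in granulocyte-monocyte precursors (GMP), dividing neutrophil precursors, immature and mature neutrophils, with 1 line a mouse, coloured by strain. All lines climb at the first step, and the Cybb lines of the 3 NZB mice end lowest, at 1217 to 1326 CPM in mature neutrophils.

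In the B lineage all 5 subunits rose from dividing to small pre-B cells. From dividing to small pre-B cells Cybb rose by 3.40 ± 0.74 on the log2(CPM + 1) scale, Ncf1 by 3.13 ± 0.86, Ncf4 by 1.85 ± 0.55 and Cyba by 1.52 ± 0.17 (each in 9 of 9 mice, exact permutation test, adjusted p = 0.00837). Rac2 rose by 0.59 ± 0.29 (8 of 9 mice, exact permutation test, adjusted p = 0.0117). From small pre-B to mature B cells all 5 rose again, by 1.29 ± 0.65 for Ncf1, 1.01 ± 0.56 for Cybb, 0.99 ± 0.41 for Ncf4, 0.91 ± 0.25 for Cyba and 0.33 ± 0.29 for Rac2, with adjusted p of 0.00837 or 0.0117 (exact permutation test). From pro-B to dividing pre-B cells Ncf4 fell by 0.99 ± 0.71 (8 of 9 mice, exact permutation test, adjusted p = 0.0160) and Rac2 rose by 0.29 ± 0.40 (8 of 9, adjusted p = 0.0391). Cybb, Cyba and Ncf1 did not pass at that step, with adjusted p of 0.284 to 0.879 (exact permutation test). Median depth was 2487 UMIs in dividing pre-B cells and 1185 in small pre-B cells. The B lineage steps, and the monocyte steps that follow, were chosen after the data had been seen.

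**Figure D3:**
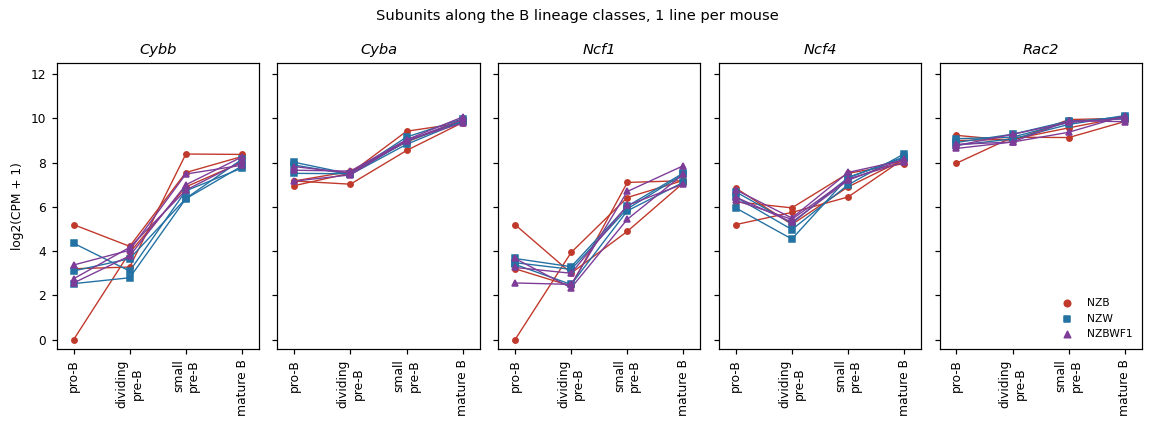
Level of the 5 subunits as log2(CPM + 1) in pro-B, dividing pre-B, small pre-B and mature B cells, with 1 line a mouse, coloured by strain. Cybb goes from a mean of 12.4 CPM in dividing pre-B cells to 147 in small pre-B and 270 in mature B cells.

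Among monocytes Cybb rose by 1.18 ± 0.50 on the log2(CPM + 1) scale from dividing to classical monocytes, Ncf1 by 0.46 ± 0.25 and Cyba by 0.23 ± 0.07 (each in 9 of 9 mice, exact permutation test, adjusted p = 0.0130). Ncf4 (-0.05 ± 0.21) and Rac2 (0.08 ± 0.12) did not pass. From classical to nonclassical monocytes Ncf1 fell by 1.08 ± 0.49 in 8 of 8 mice (exact permutation test, adjusted p = 0.0195), on 24 Ncf1 UMIs in the nonclassical cells, and the other 4 did not pass. For Cybb the strain means went in unlike directions at this step, as given above.

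Across the 20 classes the log2 levels of the subunits followed each other to different degrees. Pearson's r over 20 classes was 0.92 for Cyba and Ncf4, 0.87 for Ncf1 and Ncf4, and 0.42 for Cybb and Rac2, the lowest of the 10 pairs. The classes share libraries and differ in depth, and these values are given as a description. Among 6651 genes with enough counts, the class orders most like that of Cybb included those of Aldh3b1 (r = 0.95) and Ctsh (0.92). The genes most like Ncf1 were Plaur (0.94), Zfp516 (0.92) and Prdx5 (0.89), and those most like Rac2 were Gpsm3 (0.93), Ppp1r18 (0.93) and Sh3bgrl3 (0.92). Ncf4 was most like Orai1 (0.95), Arhgdib (0.93) and Cyba (0.92), and Cyba most like Ncf4 (0.92), Cd52 (0.89) and Rgs19 (0.88).

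The strains were compared within each class by edgeR's quasi-likelihood test on the summed counts, with Benjamini-Hochberg adjustment over all genes of the class. Differences are log2 after edgeR's TMM scaling, which the printed CPM do not carry. Between NZB and NZW the scaling moved the subunits' differences, against those of the mean CPM, by a median of 0.16 in mature neutrophils, 0.14 in immature neutrophils, 0.13 in early erythroid cells and -0.11 in granulocyte-monocyte precursors, and by less than 0.1 in the other 14 classes. It turned the sign of 6 of 71 tests and of none of those that passed. The comparisons share mice and are therefore not independent. Between NZB and NZW, 15 of 71 subunit tests in 18 classes passed (21.1%), 5 higher and 10 lower in NZB, against 6.94% of all gene tests. The median difference over the 71 tests was -0.12 and over all genes -0.01. By gene, Rac2 passed in 5 of 18 classes, Cybb in 3 of 12, Ncf4 in 3 of 14, Cyba in 3 of 17 and Ncf1 in 1 of 10. By class, 4 of 5 subunits passed in classical monocytes (17.1% of all genes there), 3 of 5 in granulocyte-monocyte precursors (7.79%) and 2 of 5 in plasmacytoid dendritic cells (7.12%). None of the 5 passed in dividing neutrophil precursors (8.43% of all genes), immature neutrophils (8.31%) or mature B cells (3.78%).

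**Figure D4:**
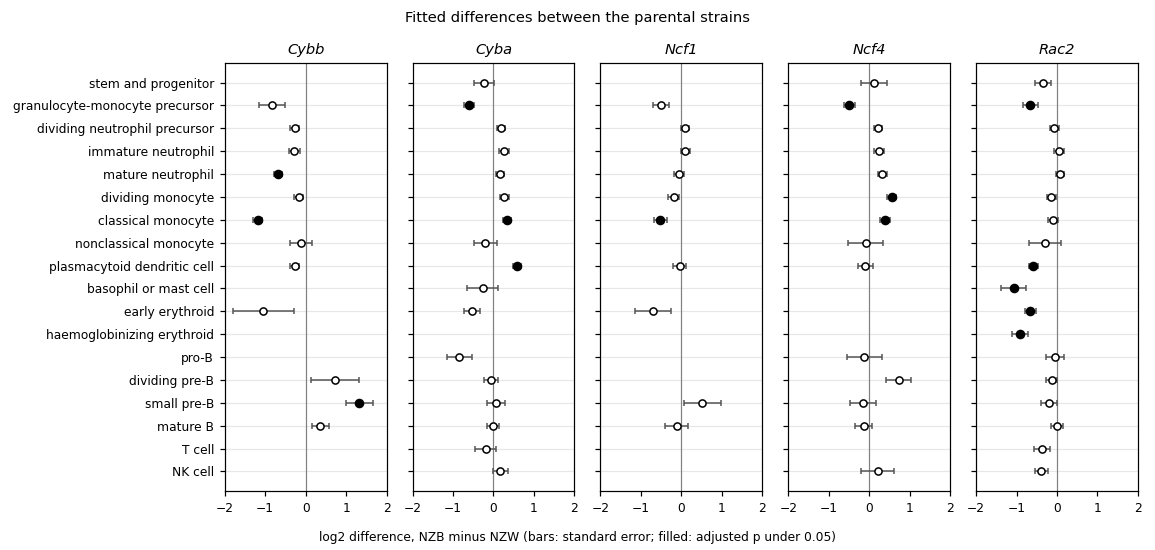
Fitted log2 difference of NZB less NZW (edgeR) of each subunit in each class tested, with bars for the SE and filled points for an adjusted p under 0.05. The 15 filled points lie on both sides of 0, 5 above and 10 below, from -1.19 to 1.33 for Cybb.

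Cybb in classical monocytes had the smallest adjusted p of the 71 tests. It was counted at 1353, 968 and 1098 CPM in the 3 NZB mice, at 2616, 2502 and 2606 in the 3 NZW mice and at 2153, 2241 and 2159 in the 3 NZBWF1 mice. Each NZB mouse lay below every other mouse, and every NZBWF1 mouse lay between the parents. NZB was lower than NZW by a log2 difference of -1.19 (SE 0.11, edgeR adjusted p = 1.65e-12), at rank 18 by p among 6960 genes, and NZBWF1 was higher than NZB by 0.92 (SE 0.11, edgeR adjusted p = 1.15e-08; 10.3% of genes passed there). The second of these did not pass in cells with at least 2000 UMIs and 1000 genes (edgeR adjusted p = 0.0824), while the first did.

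In dividing monocytes, the cycling cells with the same monocyte markers, Cybb was counted at 758, 817 and 751 CPM in NZB, 841, 842 and 958 in NZW and 815, 783 and 824 in NZBWF1. NZB and NZW did not overlap, yet the difference of -0.17 (SE 0.11) did not pass (edgeR adjusted p = 0.337; 11.7% of genes passed there). The strain difference itself differed between the monocyte classes. Classical less dividing monocytes gave a Cybb difference of -1.02 (SE 0.10, edgeR adjusted p = 3.91e-17), the smallest p of 7504 genes, of which 3.64% passed. In cells with at least 2000 UMIs it was -0.62 and did not pass (adjusted p = 0.676). Of the other subunits none passed this test in the full set of cells, with adjusted p of 0.511 to 0.924. In nonclassical monocytes the NZB less NZW difference of Cybb was -0.11 (SE 0.27, edgeR adjusted p = 0.974), with 2 or 3 mice a strain above the minimum of cells.

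**Figure D5:**
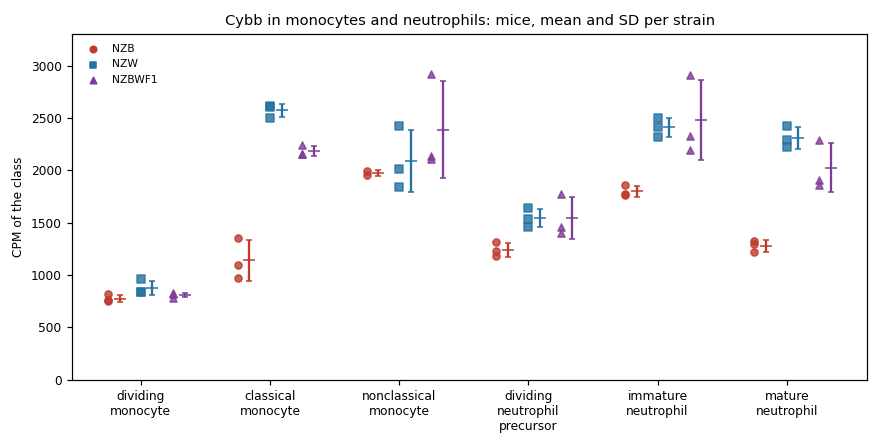
Cybb CPM in 3 monocyte and 3 neutrophil classes, with 1 point a mouse by strain and the strain mean with its SD beside the points. NZB mice stand at 968 to 1353 CPM in classical monocytes against 2502 to 2616 in NZW, while in dividing monocytes the 9 mice span 751 to 958.

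Markers of other cells also differed between the strains. The summed CPM of 22 marker lists did not overlap between NZB and NZW for 7 lists in classical monocytes, 6 in dividing monocytes, 5 in granulocyte-monocyte precursors, 8 in plasmacytoid dendritic cells, 4 each in small pre-B and early erythroid cells and 3 in mature neutrophils. With 3 mice a strain a list can lie apart by chance, and no share over all genes was taken beside these counts. Some of the lists were near the floor, such as the NK cell list in dividing monocytes (3.65 to 7.84 CPM in NZB, at most 1.51 in NZW). In the NZB classical monocytes the 5 promyelocyte markers summed to 618 to 1334 CPM, against 212 to 261 in NZW and 157 to 277 in NZBWF1, and 3 of 4 tested were higher in NZB (Elane, Prtn3 and Ctsg, proteases of the primary granules). The 5 immature neutrophil markers summed to 472 to 649 CPM in NZB and 235 to 292 in NZW, with Lcn2 higher by 3.08 and the transcription factor Cebpe lower by a log2 difference of -1.05. The 6 classical monocyte markers summed to 6404 to 7331 CPM in NZB against 8306 to 9043 in NZW, with Csf1r, Ccr2 and Fn1 lower in NZB. The 7 division markers summed to 103 to 236 CPM in NZB, 86.2 to 94.2 in NZW and 83.3 to 93.0 in NZBWF1, and of the 2 tested Mki67 was higher in NZB by 0.76. The mature neutrophil marker Mmp8 was higher by 1.04, and the macrophage markers Mrc1 and Axl were lower by log2 differences of -2.49 and -1.94. Classical monocytes without a UMI of any promyelocyte or immature neutrophil marker were also taken alone. This left 20, 23 and 38 cells in the NZB mice (13.5% to 24.8%), 154 to 327 in NZW (48.3% to 61.4%) and 79 to 313 in NZBWF1 (50.3% to 58.5%). In them Cybb was lower in NZB than in NZW by a log2 difference of -1.30 (edgeR adjusted p = 3.66e-12). It was higher in NZBWF1 than in NZB by 0.98 (edgeR adjusted p = 6.46e-07). This restriction was chosen after the data had been seen, and it kept unlike shares of the strains. At a median of 1721 UMIs a cell without such a UMI cannot be called a cell without the mRNA. The part of the granule, monocyte, division, mature neutrophil and macrophage markers in the Cybb difference was not tested. Sums over cells do not tell fewer cells of a subtype apart from less RNA a cell, and shares of cells with a UMI were not compared between strains.

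The other 3 calls of the classical monocytes were smaller. Cyba was counted at 1790, 2191 and 1967 CPM in NZB, 1642, 1614 and 1445 in NZW and 1756, 1635 and 1507 in NZBWF1. NZB lay above NZW without overlap, by 0.33 (SE 0.10, edgeR adjusted p = 0.0168), opposite in direction to Cybb. Ncf1 was counted at 160, 180 and 187 CPM in NZB against 240, 293 and 220 in NZW and 263, 196 and 201 in NZBWF1, and was lower in NZB by a log2 difference of -0.52 (SE 0.15, edgeR adjusted p = 0.0122). Ncf4 was counted at 547, 632 and 788 CPM in NZB, 508, 570 and 417 in NZW and 617, 477 and 460 in NZBWF1. Here the parents overlapped, and the difference of 0.39 (SE 0.13) passed at an edgeR adjusted p of 0.0303. None of these 3 passed in the fewer cells without a granule marker UMI, where Cyba differed by 0.16 (edgeR adjusted p = 0.638), while Ncf1 at -0.65 (adjusted p = 0.193) and Ncf4 at 0.49 (adjusted p = 0.128) differed by no less than in all the cells. They were also lost when single mice were left out: Cyba without NZB mouse 2 or NZW mouse 3 (edgeR adjusted p = 0.126 and 0.159), Ncf1 without NZW mouse 2 (0.0983), and Ncf4 without NZB mouse 2 or 3 or NZW mouse 1 or 3 (0.0536 to 0.270).

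In mature neutrophils Cybb was counted at 1217, 1326 and 1299 CPM in NZB, 2221, 2290 and 2427 in NZW and 2292, 1913 and 1865 in NZBWF1. The NZB mice lay below all 6 others. NZB was lower than NZW by a log2 difference of -0.69 (SE 0.11, edgeR adjusted p = 3.04e-05; 11.3% of genes passed in this class), and NZBWF1 was higher than NZB by 0.47 (SE 0.11, adjusted p = 0.00617; 5.24% passed). Without NZB mouse 1 or NZBWF1 mouse 1 the second of these did not pass (edgeR adjusted p = 0.0506 to 0.0664). In cells with at least 2000 UMIs neither passed, the first with a log2 difference of -0.47 (adjusted p = 0.9995) and the second of 0.55 (adjusted p = 0.923). In dividing neutrophil precursors and immature neutrophils the NZB mice also lay below all others in Cybb CPM, but the fitted differences from NZW of -0.27 (SE 0.10, edgeR adjusted p = 0.0940) and -0.28 (SE 0.13, adjusted p = 0.198) did not pass. The change of the strain difference from dividing precursors to mature neutrophils, -0.40 (SE 0.12), did not pass either (edgeR adjusted p = 0.147; 0.939% of genes passed). Classical monocytes less mature neutrophils gave -0.54 (SE 0.18, edgeR adjusted p = 0.0788; 3.53% passed).

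Markers also differed between strains in the mature neutrophils. Of the 5 immature neutrophil markers Ngp and Lcn2 were higher and Camp and Cebpe lower in NZB than in NZW, and of the 5 mature neutrophil markers Cxcr2 and Mmp9 were higher. Of the T cell list Cd3d was lower in NZB by a log2 difference of -4.68 (edgeR adjusted p = 6.60e-16), and the list summed to 13.3 to 24.8 CPM in NZB against 321 to 462 in NZW and 216 to 268 in NZBWF1. Their part in the Cybb difference was not tested. None of the other 4 subunits passed in mature neutrophils, with NZB less NZW differences of 0.32 for Ncf4 (SE 0.11, edgeR adjusted p = 0.0637), 0.15 for Cyba, 0.07 for Rac2 and -0.05 for Ncf1. For Cyba (2442 CPM in NZB and 2468 in NZW) and Rac2 (1936 and 2069) the mean CPM before the scaling lay the other way.

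In small pre-B cells Cybb went the other way. It was counted at 119, 187 and 335 CPM in NZB, 81.7, 105 and 82.5 in NZW and 127, 178 and 107 in NZBWF1. The parents did not overlap, and the NZBWF1 mice lay above NZW and overlapped with NZB. NZB was higher than NZW by 1.33 (SE 0.33, edgeR adjusted p = 0.0254; 1.81% of genes passed), on 7, 13 and 22 Cybb UMIs in the NZB mice. The call was lost without NZB mouse 2 or 3 or NZW mouse 1 or 3, with log2 differences of 0.80 to 1.40 and edgeR adjusted p of 0.0719 to 0.519. It was also lost with the stricter marker gate. Over the 18 settings run the log2 difference lay between 0.75 and 1.59. Small pre-B cells less classical monocytes gave a strain difference of 2.42 (SE 0.33, edgeR adjusted p = 3.46e-08), where 1.32% of genes passed. No single marker of another list passed between NZB and NZW in small pre-B cells, where 1 of 6 classical monocyte markers and 1 of 5 mature neutrophil markers could be tested. The classical monocyte markers summed to 288 to 319 CPM in NZB, 207 to 258 in NZW and 215 to 336 in NZBWF1, and the mature neutrophil markers to at most 137 CPM in NZB against 184 to 640 in NZW and 48.4 to 255 in NZBWF1. The pro-B markers summed to 714 to 882 CPM in NZB against 421 to 600 in NZW and the plasma cell markers to 604 to 958 against 515 to 562, so that the parents did not overlap in these 4 lists, and their part in the Cybb difference was not tested. The mature B cell markers summed to 417 to 1202 CPM in NZB against 820 to 1044 in NZW, and free RNA accounted for an expected 4.19% of the Cybb UMIs. In mature B cells Cybb differed by 0.36 (SE 0.22, edgeR adjusted p = 0.484).

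In granulocyte-monocyte precursors, a class whose gate takes in promyelocytes, 3 subunits were lower in NZB. The 1481 cells that met this gate and a mononuclear phagocyte gate had been set aside. Cyba was counted at 493, 548 and 581 CPM in NZB, 830, 724 and 688 in NZW and 712, 518 and 559 in NZBWF1, a difference of NZB from NZW of -0.61 (SE 0.13, edgeR adjusted p = 5.45e-04). Ncf4 was counted at 239, 275 and 241 CPM in NZB, 380, 318 and 280 in NZW and 328, 261 and 251 in NZBWF1, a difference of -0.49 (SE 0.14, adjusted p = 0.0149). Rac2 was counted at 278, 431 and 336 CPM in NZB, 526, 527 and 473 in NZW and 712, 449 and 365 in NZBWF1, a difference of -0.66 (SE 0.19, adjusted p = 0.0369). For all 3 the parents did not overlap and NZBWF1 overlapped with both. Ncf4 was lost without NZB mouse 1 or 3 or NZW mouse 1 (edgeR adjusted p = 0.0685 to 0.128), and Rac2 without NZB mouse 1 or 3 or any 1 of the NZW mice (0.0811 to 0.190). In this class Mpo and Cebpe were lower in NZB too, by log2 differences of -0.46 and -0.66, as was the monocyte marker F13a1 by -1.62 (edgeR adjusted p = 2.12e-04), and the promyelocyte markers summed to 36337 to 40254 CPM in NZB against 40560 to 49446 in NZW. The parents did not overlap either in the NK cell list (901 to 1000 CPM in NZB against 692 to 870 in NZW), the macrophage list (38.4 to 74.3 against 81.7 to 98.7), the B lineage list (35.7 to 46.1 against 49.4 to 72.8) and the conventional dendritic cell list (4.66 to 17.1 against at most 1.90). Their part in these differences was not tested.

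The strain difference of the 3 subunits was not the same in the dividing stages. In dividing monocytes Ncf4 was counted at 637, 750 and 766 CPM in NZB, 495, 565 and 419 in NZW and 481, 519 and 582 in NZBWF1. Every NZB mouse lay above every other mouse, by 0.55 over NZW (SE 0.12, edgeR adjusted p = 2.45e-04), and NZBWF1 was lower than NZB by a log2 difference of -0.49 (SE 0.12, adjusted p = 0.00421; 5.50% of genes passed), a call lost without NZB mouse 2 (adjusted p = 0.0642). In these cells Elane, Prtn3, Lcn2 and the mature neutrophil marker Mmp8 were higher in NZB and Ctsg and Cebpe lower. The promyelocyte markers summed to 1293 to 1658 CPM in NZB against 1189 to 1292 in NZW. The mature neutrophil markers summed to 278 to 529 against 197 to 279, where the parents just overlapped. The pro-B, plasma cell and NK cell lists lay above NZW without overlap and the stem and progenitor and mature B lists below. These lists summed to 46.9 CPM or less in both parents. The part of these markers and lists in the Ncf4 difference was not tested. Dividing monocytes less granulocyte-monocyte precursors gave strain differences of 1.05 for Ncf4 (SE 0.15, edgeR adjusted p = 3.39e-08), 0.88 for Cyba (SE 0.12, adjusted p = 6.70e-09) and 0.51 for Rac2 (SE 0.15, adjusted p = 0.0386), where 3.36% of genes passed. Dividing neutrophil precursors less granulocyte-monocyte precursors gave 0.79 for Cyba (SE 0.13, edgeR adjusted p = 4.46e-05), 0.71 for Ncf4 (SE 0.14, adjusted p = 6.26e-04) and 0.59 for Rac2 (SE 0.16, adjusted p = 0.0312), where 3.58% passed. The Rac2 values were lost without any 1 of the NZW mice or without NZB mouse 1, and in the monocyte comparison also without NZB mouse 3 (edgeR adjusted p of 0.0609 to 0.217 and of 0.0668 to 0.221 in the neutrophil comparison). They were also lost with at most 5% mitochondrial UMIs and with thinned cells. At most 5% mitochondrial UMIs lost the Ncf4 values too (edgeR adjusted p = 0.262 in the monocyte and 0.685 in the neutrophil comparison). The 6 pairs of classes compared in this way were picked after the strain differences had been seen.

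In plasmacytoid dendritic cells, producers of type I interferon, the membrane partner and the GTPase moved in opposite directions. Cyba was counted at 980, 1093 and 1019 CPM in NZB, 728, 679 and 721 in NZW and 713, 786 and 734 in NZBWF1. All NZB mice lay above the other 6, by 0.58 over NZW (SE 0.11, edgeR adjusted p = 5.88e-05), and NZBWF1 was lower than NZB by a log2 difference of -0.49 (SE 0.10, adjusted p = 0.00108; 2.18% of genes passed). Rac2 was counted at 885, 876 and 871 CPM in NZB, 1214, 1528 and 1326 in NZW and 1130, 1106 and 1089 in NZBWF1. The 3 strains did not overlap, and NZB was lower than NZW by a log2 difference of -0.59 (SE 0.11, edgeR adjusted p = 1.85e-05). In cells with at least 2000 UMIs and 1000 genes none of these calls passed, with Cyba of NZB against NZW at an edgeR adjusted p of 0.708. At most 5% mitochondrial UMIs also lost Rac2 and the Cyba call of NZBWF1 against NZB. In the same cells Siglech and Ccr9 were higher and Cox6a2 and Pacsin1 lower in NZB, so that all 4 markers of the class differed, the monocyte marker Ly86 was higher and Ccr2, Cd209a and Mzb1 of other lists were lower, and the 7 division markers summed to 560 to 959 CPM in NZB, 1061 to 2417 in NZW and 450 to 817 in NZBWF1. Their part in the Cyba and Rac2 differences was not tested.

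Rac2 was also lower in NZB in both erythroid classes and in basophils or mast cells. In early erythroid cells it was counted at 53.4, 52.3 and 66.3 CPM in NZB, 99.0, 101 and 82.3 in NZW and 86.5, 72.9 and 60.8 in NZBWF1, a difference of NZB from NZW of -0.66 (SE 0.14, edgeR adjusted p = 5.94e-04; 6.86% of genes passed). In haemoglobinizing erythroid cells the counts were 47.6, 68.2 and 53.2 CPM in NZB, 104, 115 and 107 in NZW and 59.4, 96.4 and 52.0 in NZBWF1, a difference of -0.91 (SE 0.20, adjusted p = 4.44e-04; 4.81% passed). The parents did not overlap in either class. At most 5% mitochondrial UMIs lost both calls (edgeR adjusted p = 0.172 in haemoglobinizing erythroid cells), and thinned cells lost the call in early erythroid cells. In basophils or mast cells Rac2 was at 448 and 563 CPM in the 2 NZB mice with enough cells and at 1170, 784 and 1143 in NZW, a difference of -1.07 (SE 0.31, edgeR adjusted p = 0.0281; 6.77% passed). This call was lost in 11 of the 19 settings run. They include the fits without NZB mouse 2 or 3 or NZW mouse 1 or 3, with log2 differences of -1.23 to -0.85. At most 5% mitochondrial UMIs, the stricter gate, thinned cells, no filter beyond 1 UMI, the replicate block and leaving out the 5% of cells with most UMIs lost it too. In early erythroid cells the erythroid gene Ermap was higher in NZB by a log2 difference of 0.42, and Adgrg1, a stem and progenitor marker, was lower by -2.97 (edgeR adjusted p = 1.08e-12). The 6 stem and progenitor markers summed there to 6.46 to 15.8 CPM in NZB, 47.6 to 58.0 in NZW and 32.4 to 51.6 in NZBWF1, the mature neutrophil markers summed to 78.7 to 99.1 CPM in NZB, 139 to 276 in NZW and 8.94 to 114 in NZBWF1, and their part in the Rac2 difference was not tested. Rac2 in T cells, NK cells and mature B cells did not pass.

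The cross was set against each parent and against their mean. NZBWF1 differed from NZB in 6 of 75 subunit tests (8.0%), 2 higher and 4 lower, against 2.70% of all gene tests. Besides the 4 already given, Cyba (-0.31, SE 0.10, edgeR adjusted p = 0.0412) and Ncf4 (-0.40, SE 0.13, adjusted p = 0.0457) were lower than in NZB in classical monocytes. In the cells without a granule marker UMI these differences were -0.16 (edgeR adjusted p = 0.728) and -0.60 (adjusted p = 0.0841). The Cyba call was lost in 7 of the 9 fits that left out 1 mouse, all but those without NZB mouse 1 or NZBWF1 mouse 1, and the Ncf4 call in 5 of them, those without NZB mouse 2 or 3, NZW mouse 1 or NZBWF1 mouse 2 or 3 (edgeR adjusted p of 0.0534 to 0.289 and 0.0546 to 0.316). Against NZW none of 75 tests passed (0.952% of all gene tests did), with 11 at an unadjusted p under 0.05 and 0 by DESeq2. Against the mean of the parents' log levels none of 71 passed (0.427%), with 4 at an unadjusted p under 0.05. The smallest was Cybb in classical monocytes, higher than the parental mean by 0.32 (SE 0.09, edgeR adjusted p = 0.0503), and DESeq2 called this 1 test. Of the calls given above DESeq2 made 10 of the 15 between NZB and NZW and 4 of the 6 between NZBWF1 and NZB. It did not call Ncf1 and Ncf4 in classical monocytes, Ncf4 and Rac2 in granulocyte-monocyte precursors and Rac2 in basophils or mast cells (DESeq2 adjusted p = 0.0616 to 0.197), nor Cyba and Ncf4 of NZBWF1 against NZB in classical monocytes (0.0552 and 0.121).

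Of the 15 subunit tests called between the parents, the mean log2 CPM of NZBWF1 lay between those of NZB and NZW in all 15. On a scale from 0 at NZW to 1 at NZB its place was under 0.5 in 10 of 15, with a median of 0.33. Cybb was at 0.20 in classical monocytes, 0.23 in mature neutrophils and 0.52 in small pre-B cells. Cyba was at 0.13 in plasmacytoid dendritic cells and at 0.72 in granulocyte-monocyte precursors, and Rac2 ranged from 0.10 in granulocyte-monocyte precursors to 0.73 in haemoglobinizing erythroid cells. These 15 were chosen by the difference between the same parents, and the places are a description.

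The partners of the 5 subunits were followed in the same classes. Rac1, the widely expressed relative of Rac2, lay between 61.2 CPM in plasma cells and 559 in dividing monocytes. BC017643, the older symbol of Cybc1, whose product supports the Cybb and Cyba pair, lay between 14.0 CPM in plasma cells and 112 in small pre-B cells. Of 104 tests of the 7 membrane and cytosolic partners between NZB and NZW, 4 passed (3.85%, 2 higher and 2 lower in NZB, median 0.04), against 6.94% of all gene tests. The proton channel gene Hvcn1 passed in 3 of 9 classes, 1 higher and 2 lower in NZB. The smallest p was in mature neutrophils, at a mean of 26.6 CPM in NZB and 61.3 in NZW (-1.02, SE 0.22, edgeR adjusted p = 0.00220). There NZBWF1 at 60.2 was higher than NZB by 0.97 (adjusted p = 0.00753). None of the 9 genes of other NADPH oxidases had enough counts to be tested.

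Of 153 tests of 14 upstream activators 26 passed (16.99% against 6.94% of all gene tests, 11 higher and 15 lower in NZB, median -0.10 against -0.01 over all genes). The kinase gene Syk was lower in NZB in 7 of 15 classes, most clearly in plasmacytoid dendritic cells, at a mean of 191 CPM in NZB, 464 in NZW and 328 in NZBWF1 (-1.24, SE 0.14, edgeR adjusted p = 6.09e-12). The Src family gene Fgr was higher in NZB in 5 of 8 classes, by 1.27 in dividing monocytes (SE 0.17, adjusted p = 6.10e-09). Of 178 tests of 14 genes that handle superoxide and peroxide 27 passed (15.2% against the same 6.94%), 23 of them higher in NZB. Gclm, a subunit gene of glutathione synthesis, was higher in 7 of 13 classes, by 1.24 in dividing monocytes (SE 0.21, adjusted p = 2.73e-06), Gpx1 in 4 of 18 and Prdx2 in 3 of 16.

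Of 70 tests of 7 transcription factor genes known to act on subunit genes 9 passed (12.9% against 6.94%), 8 of them lower in NZB. Cebpe was lower in 4 of 6 classes. Irf8 was called in 3 of 15, 1 higher and 2 lower in NZB, with -0.95 in dividing monocytes (SE 0.12, edgeR adjusted p = 1.06e-09). Spi1, which encodes PU.1, was lower in granulocyte-monocyte precursors alone of 13 classes (-0.62, SE 0.15, adjusted p = 0.00242). In those precursors Cyba, Ncf4 and Rac2 were lower in NZB as well, and no test linked these differences. NZBWF1 differed from NZB in 2 of 108, 10 of 157, 15 of 185 and 2 of 72 tests of partners, activators, peroxide handling and transcription factors, where 2.70% of all gene tests passed. Against NZW it differed in 1 of 108, 3 of 156, 4 of 186 and 0 of 73, where 0.952% did. Hmox1, the heme oxygenase gene, was the one gene of these lists that differed from the mean of the parents, in granulocyte-monocyte precursors at a mean of 10.9 CPM in NZB, 7.63 in NZW and 38.1 in NZBWF1 (2.10, SE 0.35, edgeR adjusted p = 1.32e-04). It was also higher than in NZW in 3 of 8 classes.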

How the data were processed

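The authors prepared 1 library a mouse with the 10x Chromium 3' v3.1 kit and made UMI counts, which they deposited as filtered and raw matrices of all 9 libraries merged by Cell Ranger, with the mouse given by the library number of each barcode and the deposited list of libraries. The submitters' processing notes name bcl2fastq 2.20, Cell Ranger 3.1.0 and mm10. No source used here states if the merge equalised depth. A strand setting is not stated. The deposited counts were used unscaled. Cells were kept at 1000 or more UMIs, 500 or more genes and at most 10% mitochondrial UMIs, and gated into 21 classes by marker lists: 3 markers with a UMI (2 for short lists), or a share of UMIs for abundant granule or other genes (2% and 0.5%), with at most 1 division gene in resting classes. Cells that met gates of 2 lineages, or of 2 kinds of nonclassical monocyte, macrophage or dendritic cell, were set aside as doublets or mixed cells, and no doublet caller was run. Free RNA was estimated from raw barcodes with 10 to 100 UMIs.

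Counts were summed by class and mouse, with at least 10 cells. Strains were compared with edgeR 4.0.16 (quasi-likelihood, TMM, robust, filterByExpr, Benjamini-Hochberg within a class, threshold 0.05), fitted on all 3 strains with contrasts for NZB against NZW, NZBWF1 against each parent, and the cross against the mean log level of both parents (coefficients -0.5, 1 and -0.5). SE is the size of the log2 difference over the root of F. Classes were compared by the 2-sided exact sign-flip permutation test over mice on log2(CPM + 1), whose smallest p with 9 mice is 0.00391. Scripts were tested on simulated data. Each mouse is a separate animal, and the depth above limits low counts to counting error and mouse spread.

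Members and gene lists were chosen with earlier results of these data known. The text names the subunits, from each partner list at most 3 genes a contrast (called in most classes) and, for likeness, the 3 genes with the highest Pearson r at a mean of at least 50 CPM in a class. Alternatives were other cell filters, a stricter gate, thinning, free RNA subtraction, RLE scaling, DESeq2 1.42.0, other count filters, a block for the replicate number, and fits without 1 mouse. R 4.3.3, limma 3.58.1, Python 3.11.15, NumPy 2.4.6, SciPy 1.17.1 and pandas 2.3.3 were used. Promoter and position tables came from RefSeq (GRCm38.p6) and GENCODE vM21. Values of some single genes in the lists are not reported here.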

Additional observations from a re-analysis of the deposited data

Results flagged for a closer look

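The difference between NZB and NZW itself differed between 2 classes in 8 subunit tests (edgeR, adjusted over all genes of the pair of classes), among 6 pairs of classes picked after the strain differences had been seen. All 5 subunits were tested in each pair, and 0.939% to 3.64% of all genes passed there. Cybb, NZB less NZW, was lower in classical than in dividing monocytes, by a log2 difference of -1.02 (adjusted p = 3.91e-17), which was -0.62 and did not pass in cells with at least 2000 UMIs (adjusted p = 0.676). Cybb, NZB less NZW, was higher in small pre-B cells than in classical monocytes, by 2.42 (adjusted p = 3.46e-08), on few Cybb UMIs in the NZB small pre-B cells. In dividing neutrophil precursors less granulocyte-monocyte precursors, NZB less NZW came to 0.79 for Cyba (adjusted p = 4.46e-05), 0.71 for Ncf4 (adjusted p = 6.26e-04) and 0.59 for Rac2 (adjusted p = 0.0312). In dividing monocytes less granulocyte-monocyte precursors it came to 0.88 for Cyba (adjusted p = 6.70e-09), 1.05 for Ncf4 (adjusted p = 3.39e-08) and 0.51 for Rac2 (adjusted p = 0.0386). The 2 sets of precursor comparisons share the granulocyte-monocyte precursors and are not independent, and their Rac2 values were lost in 4 and 5 of the 9 fits without 1 mouse. With at most 5% mitochondrial UMIs their Rac2 and Ncf4 values did not pass. Groups of 3 mice were held too small to flag a single mouse standing apart, and dependence on single mice is given by the fits without 1 mouse.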

How the results depend on the processing

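None of the 21 called subunit tests and of the 8 called differences between classes changed direction under the alternatives run for them. With cells of at least 2000 UMIs, 12 of 15 neutrophil steps kept their direction, and the 3 that turned (the second of Cyba, at -0.09, the second of Rac2, at -0.10, and the third of Ncf4, at -0.23) did not pass there. With cells of at least 2000 UMIs and 1000 genes, which leaves fewer cells and fewer mice in a class, 6 tests of NZB against NZW passed in place of 15, 1 of NZBWF1 against NZB in place of 6, 6 neutrophil steps in place of 14 and 9 neighbour pairs in place of 20. At most 5% mitochondrial UMIs left 7 neighbour pairs. NZB against NZW gave 10 calls with DESeq2 and with at most 5% mitochondrial UMIs and 11 with thinned cells, and NZBWF1 against NZB 4 with DESeq2. NZBWF1 against NZW went from 0 to 1 with at most 5% mitochondrial UMIs, with the stricter gate, without the 5% of cells with most UMIs, with no filter beyond 1 UMI and with at least 10 UMIs in every mouse. NZBWF1 against the mean of the parents went from 0 to 1 (Cybb in classical monocytes) without the 5% of cells with most UMIs, with free RNA subtracted, with thinned cells, with RLE scaling, with DESeq2, with no filter beyond 1 UMI, with at least 10 UMIs in every mouse and with the replicate block. Leaving out 1 mouse at a time gave 10 to 16, 3 to 6, 0 to 2 and 0 to 1 in these 4 comparisons, with 3 for NZBWF1 against NZB without NZB mouse 2, and 14 to 15 neutrophil steps and 0 to 17 neighbour pairs, with 0 without NZW mouse 1, 2 or 3 or NZBWF1 mouse 1, a count that depends on the smallest p of 8 mice. The cause was not tested where none is given.

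The replicate numbers were not taken to pair the mice, since not every pair correlated above 0.1: deviations of same-numbered mice correlated at 0.00238 to 0.282 in mature neutrophils, -0.0517 to 0.0510 in classical monocytes and -0.149 to 0.323 in dividing pre-B cells (9 pairs each). In mature neutrophils all pairs of numbers 1 and 2 (0.222 to 0.282) lay above the pairs of unlike numbers (-0.324 to 0.116), and those of number 3 (0.00238 to 0.0392) did not. With the replicate block the 4 comparisons gave 16, 5, 0 and 1. Of single strain tests under settings other than leaving out a mouse, 198 kept their call and 55 lost it, and under leaving out a mouse 151 and 38. Of strain differences between class pairs 38 kept it and 9 lost it, and 63 and 9 with a mouse left out. Of 585 class levels 56 moved by more than their SD, all under other cell filters, gates or thinning. The dividing monocytes without a granule marker UMI could not be fitted, since the NZB mice kept 1, 22 and 7 cells. Depth limits Cybb in small pre-B cells and every subunit in nonclassical monocytes, macrophages, and basophils or mast cells.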
